A study of Mus musculus with 16 samples.

Results

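The cytosolic ribosomal protein genes encode the structural proteins of the large and the small ribosomal subunit that translate nuclear mRNAs in the cytoplasm. They are followed here in early B-lineage cells of mouse bone marrow and fetal liver. Members were the genes whose RefSeq symbol is Rpl or Rps with a number (and a final a or x), with Rplp0, Rplp1, Rplp2 and Rpsa. The gene name column of the scanner files holds accessions, so the name pattern matched 0 probes there directly. It was applied instead to the RefSeq symbol of each accession, which gave 110 of the 41174 probes on the array and 76 genes. Each gene was read on its brightest probe, and all 76 passed the filter on dim probes among 22551 genes or unnamed transcripts tested. They comprise 43 proteins of the large subunit, 30 of the small subunit and the 3 stalk proteins Rplp0, Rplp1 and Rplp2.

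The study hybridised 16 two-colour arrays of wild-type BALB/c mice, 4 in each of 4 groups, under a series title that concerns Lin28b, Arid3a and fetal B lymphopoiesis. BM Fr.A and BM Fr.B/C were Hardy fraction A (pre-pro-B cells) and the combined fractions B and C (pro-B cells) from adult bone marrow, each sort pooling 16 female mice. FL Fr.A and FL Fr.B/C were the same fractions from fetal liver at gestation day 16, each sort using the embryos of 1 pregnant mouse, on average 8. Every sort gave 1 sample of each fraction, and amplified RNA from 100 ng was set against one reference pooled from 6 cell lines (EL4, J558, P388d, R1, RS2 and DN3). All values below are log2 ratios of sample over reference, or differences between 2 such ratios, where a difference of 1 is a factor of 2. A call is an adjusted p under 0.05 in limma, with Benjamini-Hochberg adjustment over all genes tested.

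Ribosomal proteins are made in equimolar amounts in growing cells, and their mRNAs are among the most abundant a cell holds. Their transcripts begin with a run of pyrimidines, the TOP motif, through which mTOR signalling and LARP1 control their translation, and MYC drives transcription of many of them. Loss of single members has tissue-specific effects: RPS19, RPL5 and RPL11 are mutated in Diamond-Blackfan anaemia, a failure of red cell production, and loss of Rpl22 impairs lymphocyte development in mice.

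The promoters of members that moved together below are shown because the start site bears on the TOP motif. Each window runs from 40 bases before to 20 bases after the annotated RefSeq start (GRCm38.p6), with the longest unbroken run of C and T within 20 bases of the start in capitals. Rpl31 is at chr1:39367811-39367870 (+), Rpl27a at chr7:109519155-109519214 (+), Rpl14 at chr9:120571477-120571536 (+), Rpl23 at chr11:97782420-97782479 (-), and Rpl22, from the downstream of its 2 listed starts, at chr4:152325686-152325745 (+).
Rpl31: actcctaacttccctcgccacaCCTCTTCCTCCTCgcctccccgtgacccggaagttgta
Rpl27a: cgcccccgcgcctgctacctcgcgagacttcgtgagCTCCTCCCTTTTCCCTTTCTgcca
Rpl14: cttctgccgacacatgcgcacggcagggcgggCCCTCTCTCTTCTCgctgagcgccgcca
Rpl23: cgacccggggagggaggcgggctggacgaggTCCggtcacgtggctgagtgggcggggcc
Rpl22: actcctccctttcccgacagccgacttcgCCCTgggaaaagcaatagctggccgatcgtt
The run was 13 bases long in Rpl31, 20 in Rpl27a, 14 in Rpl14, 3 in Rpl23 and 4 in Rpl22. Relative to the start it began at -18 in Rpl31, -9 in Rpl23 and -11 in Rpl22, and in these genes it ended before the start. In Rpl27a and Rpl14 the run spanned the start. Whether any of these runs begins a transcript was not tested. Of the 56 members with a listed promoter, 28 (50%) had a run of at least 8 C or T within 20 bases of a listed start. Of all 27025 genes with a listed promoter, 4965 (18.4%) had one. The letters CCGGAAG, on either strand of the 300 bases from 250 before to 50 after the start, stood in 23 of 56 members (41.1%) and in 9.9% of all genes. The letters TATAAA, searched in the same way, stood in 6 of 56 members (10.7%) and in 15.7% of all genes.

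Most members were too bright for these arrays. Of the 76, 63 had a spot at the scanner's ceiling in some channel on some array, and 37 had the sample channel saturated on all 16 arrays; over all genes tested, 284 of 22551 were ever saturated and 69 had the sample saturated on all 16. Per array, 42 to 62 members were saturated in the sample channel and 6 to 58 in the reference channel. Rpl34 and Rpl8, large-subunit proteins, were saturated in both dyes on all 16 arrays. Their group means still differed between groups: Rpl34 averaged 0.06 in BM Fr.A, -0.17 in BM Fr.B/C, -0.19 in FL Fr.A and -0.40 in FL Fr.B/C, values that carry no information on the transcript. On 9 of the 16 arrays the median of all members equalled the median of the members saturated in both dyes. The median of the members saturated in both dyes ran from -0.56 to 0.51 across arrays. No direction is read below from a member whose sample channel was saturated on all arrays compared.

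**Figure D1:**
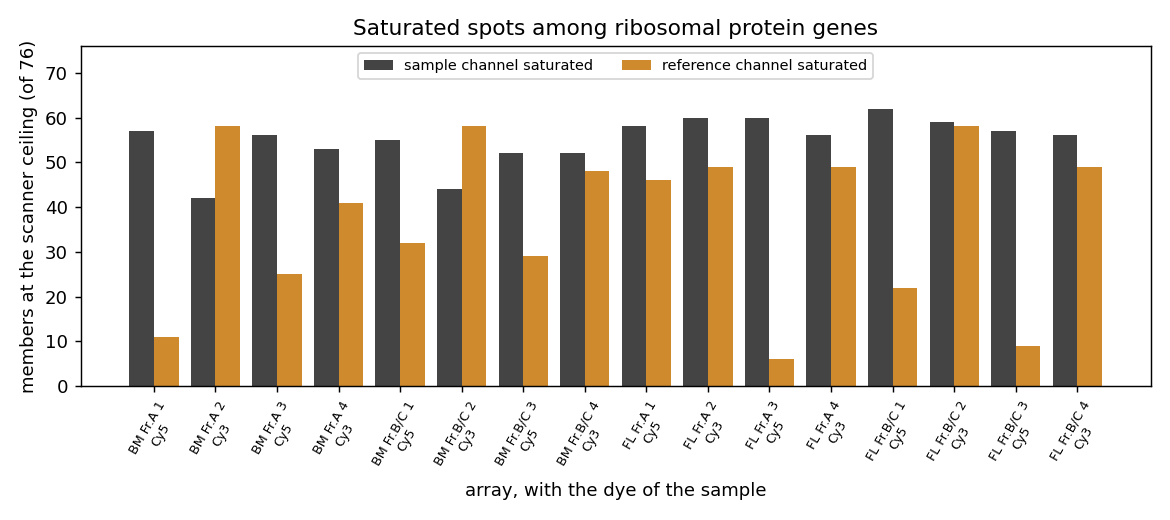
Number of the 76 ribosomal protein genes whose spot was at the scanner ceiling on each array, for the sample channel (dark bars) and the reference channel (orange bars); labels give the group, the array number and the dye of the sample. Sample counts run from 42 to 62 and reference counts from 6 to 58, so most members had no measurable ratio on most arrays.

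Read as the member list stands, few of the 76 genes passed the test. From Fr.A to Fr.B/C in bone marrow, 0 rose and 10 fell, where 13.4% of all genes rose and 18.8% fell. In fetal liver 0 rose and 6 fell, against 10.1% and 12.7% of all genes. At an unadjusted p under 0.05, limma likewise counted 0 members higher in both tissues, with 16 lower in bone marrow and 9 lower in fetal liver. Between tissues, 5 members were higher and 5 lower in fetal liver in Fr.A (12.1% and 17.3% of all genes), and 6 were higher and 1 lower in Fr.B/C (13.8% and 14.6%). Single arrays moved these counts: without BM Fr.A 2 or FL Fr.A 2, 1 member was lower in fetal liver Fr.A; without BM Fr.B/C 1 or FL Fr.B/C 3 or 4, 3 were higher in fetal liver Fr.B/C; without BM Fr.B/C 1, 5 were lower in bone marrow Fr.B/C; and without FL Fr.A 2, 14 fell to Fr.B/C within fetal liver.

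The split by saturation shows which of these calls can be read. In Fr.A, the 5 members higher in fetal liver (Rpl14, Rpl21, Rpl27a, Rpl29 and Rpl31) were all unsaturated. Of the 5 lower, 4 had the sample channel saturated on all arrays of both groups, Rpl3, Rps14 and Rps24 among them, and Rpl19 was partly saturated. In Fr.B/C, 5 of the 6 higher were unsaturated, and the only lower member, Rpl10, was partly saturated. Of the 10 members lower in bone marrow Fr.B/C, 4 were unsaturated (Rpl14, Rpl21, Rpl27a and Rpl31), 3 partly saturated (Rpl30, Rpl37 and Rps21) and 3 saturated in the sample on all arrays, Rps14 and Rps29 among them. With the sort as a block, the count lower in bone marrow Fr.B/C rose from 10 to 27, of which 13 were saturated in the sample on all arrays, 8 partly saturated and 6 unsaturated. Of the 6 members lower in fetal liver Fr.B/C, 5 were unsaturated and Rps6 was saturated on 1 array.

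**Figure D2:**
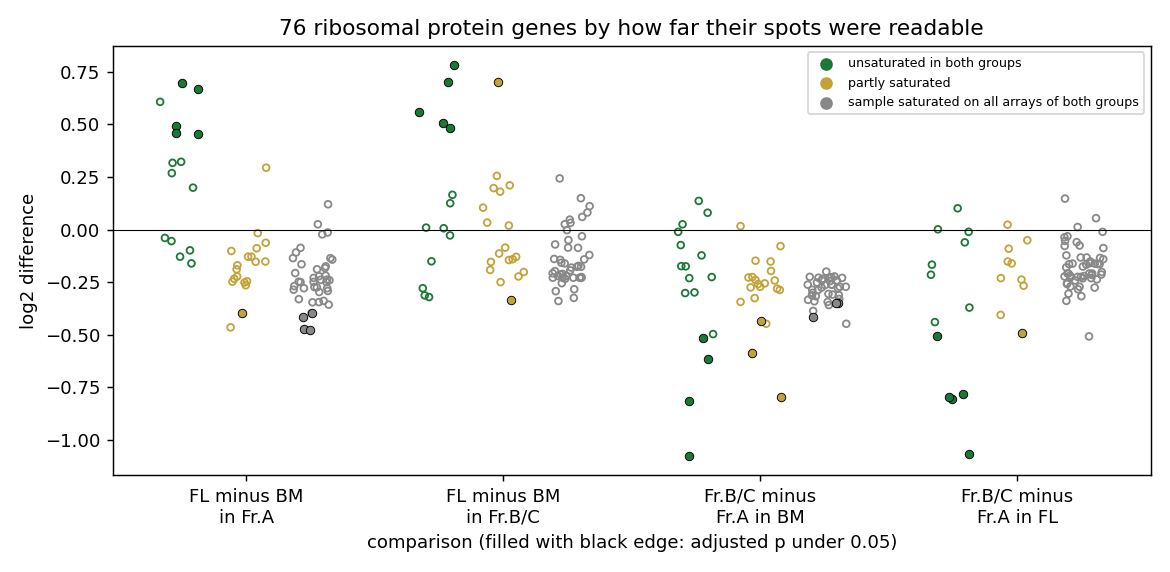
Log2 difference of each of the 76 members in 4 comparisons (horizontal axis), split into members unsaturated in both groups (green), partly saturated (yellow) and saturated in the sample channel on all arrays of both groups (grey); filled points with a black edge passed the test. The grey points cluster a little below 0 in each comparison while the green points spread from -1.07 to 0.78.

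The readable part of the family was therefore taken from probes that were never saturated in either dye. There were 26 such genes on 33 of the 110 probes; 13 of them were read on the same brightest probe as above and the rest on a dimmer second probe, and the fit was repeated over 22333 genes with a never-saturated probe. From Fr.A to Fr.B/C, 0 of the 26 rose and 7 fell in bone marrow, against 13.5% and 18.9% of all genes in that fit, and 0 rose and 8 fell in fetal liver, against 10.1% and 12.8%. At an unadjusted p under 0.05, limma again had 0 higher, with 9 lower in bone marrow and 10 in fetal liver. The median difference was -0.26 in bone marrow and -0.27 in fetal liver, beside -0.04 and 0.00 over all genes. Under median centring of the arrays these medians were -0.10 and -0.11; without BM Fr.A 4 the bone marrow one was -0.16, and on Cy5 arrays alone the fetal liver one was -0.17. Between tissues, 9 were higher and 1 lower in fetal liver Fr.A (12.1% and 17.4% of all genes), and 8 higher and 1 lower in fetal liver Fr.B/C (13.9% and 14.8%). The medians were 0.27 and 0.18; the first was 0.099 without BM Fr.A 2 and 0.17 without FL Fr.A 4, and the second 0.12 without FL Fr.B/C 3 and 0.28 under median centring. With the sort as a block, the count lower in bone marrow was 12.

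The same 7 genes fell from Fr.A to Fr.B/C in both tissues: Rpl14, Rpl21, Rpl22, Rpl23, Rpl27a, Rpl31 and Rpl37, all of the large subunit. With the sort as a block these 7 were again called in both tissues, as were Rps3, a small-subunit protein (-0.54 and -0.42, limma adjusted p = 0.00158 and 0.0102), and Rpl34 (-0.27 and -0.34, adjusted p = 0.0429 and 0.0183). The block also called Rpl35a, Rps15a and Rps25 lower in bone marrow Fr.B/C and Rpsa lower in fetal liver Fr.B/C, so the limit to the large subunit depends on the fit. Of the 7, 5 (Rpl14, Rpl23, Rpl27a, Rpl31 and Rpl37) were also higher in fetal liver at both stages. The shares of all genes with these joint patterns were not counted, so the 7 and the 5 have no background beside them. Rpl22 went the other way between tissues and was lower in fetal liver at both stages. Because cells were sorted and RNA was pooled, fewer cells of a type and less RNA per cell cannot be told apart.

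**Figure D3:**
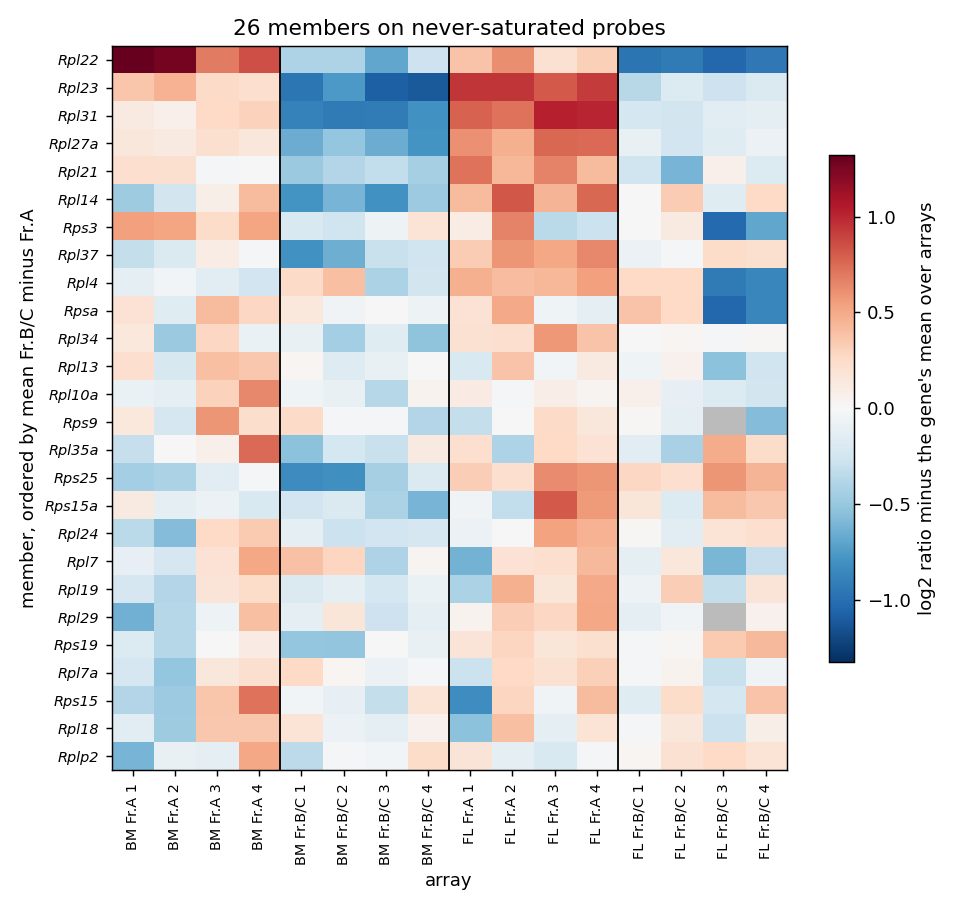
Log2 ratio of each of the 26 members with a never-saturated probe on each array, minus that gene's mean over arrays (colour), with members ordered by their mean Fr.B/C minus Fr.A difference and groups split by black lines; grey cells were left out as outlier spots. The top rows are high in both Fr.A groups and low in both Fr.B/C groups, and the lower rows show no such step.

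Rpl31, a protein of the large subunit near the exit of the nascent chain, had a span of group means of 1.77, the widest of the 76 members on their brightest probes. On never-saturated probes Rpl22 and Rpl23, described next, ranged more widely, with group means from -0.62 to 1.39 and from -1.50 to 0.38. The values were -0.15, -0.21, 0.00 and 0.04 in BM Fr.A, -1.16, -1.20, -1.19 and -1.07 in BM Fr.B/C, 0.51, 0.45, 0.76 and 0.74 in FL Fr.A, and -0.50, -0.52, -0.41 and -0.39 in FL Fr.B/C. The 4 groups did not overlap in any comparison, with FL Fr.A highest and BM Fr.B/C lowest. The fall to Fr.B/C was -1.07 ± 0.09 (SE) in both tissues (limma adjusted p = 1.91e-07 for bone marrow, 2.64e-07 for fetal liver). Its rise in fetal liver was 0.69 ± 0.09 for Fr.A and 0.70 ± 0.09 for Fr.B/C (adjusted p = 2.65e-05 and 2.75e-05). A second unsaturated probe of Rpl31 gave -1.05 and -1.24 for the stage and 0.77 and 0.58 for the tissue.

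Rpl27a, another large-subunit protein with 1 probe, followed the same order. It stood at 0.61, 0.58, 0.68 and 0.61 in BM Fr.A, at -0.20, -0.05, -0.19 and -0.33 in BM Fr.B/C, at 1.07, 0.94, 1.22 and 1.22 in FL Fr.A, and at 0.36, 0.21, 0.30 and 0.38 in FL Fr.B/C. Every array of a lower group lay below every array of the higher one in all 4 comparisons. The stage difference was -0.81 ± 0.08 in bone marrow (limma adjusted p = 2.08e-06) and -0.80 ± 0.08 in fetal liver (3.60e-06). The tissue difference was 0.49 ± 0.08 for Fr.A and 0.51 ± 0.08 for Fr.B/C (3.73e-04 and 3.23e-04); neither passed on the arrays with the sample in Cy3 alone.

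Rpl23, which binds MDM2 as well as the ribosome, was read on its second, unsaturated probe. Values were -0.16, -0.06, -0.28 and -0.30 in BM Fr.A, -1.48, -1.28, -1.61 and -1.64 in BM Fr.B/C, 0.42, 0.42, 0.29 and 0.40 in FL Fr.A, and -0.89, -0.71, -0.80 and -0.71 in FL Fr.B/C. The groups were separate in every comparison. Differences were -1.30 ± 0.09 and -1.16 ± 0.09 for the stage (limma adjusted p = 1.70e-08 and 8.09e-08) and 0.58 ± 0.09 and 0.73 ± 0.09 for the tissue (1.07e-04 and 1.48e-05). Its brightest probe, saturated in the sample on 15 arrays, gave -0.24, -0.13, -0.22 and -0.11 in the same order.

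Rpl22 differed from these genes in its tissue pattern. Its unsaturated probe read 1.68, 1.62, 1.04 and 1.21 in BM Fr.A, -0.06, -0.05, -0.34 and 0.08 in BM Fr.B/C, 0.73, 0.97, 0.56 and 0.67 in FL Fr.A, and -0.61, -0.58, -0.68 and -0.59 in FL Fr.B/C. BM Fr.A was highest and FL Fr.B/C lowest, with no overlap between the groups compared. The fall to Fr.B/C, -1.48 ± 0.13 in bone marrow (limma adjusted p = 3.68e-07) and -1.35 ± 0.13 in fetal liver (1.44e-06), was the largest among the 26 genes in both tissues. Fetal liver was lower by -0.66 ± 0.13 in Fr.A (0.00124) and by -0.53 ± 0.13 in Fr.B/C (0.00679), differences that missed the threshold under median centring and on each dye alone. Its brightest probe, saturated in the sample on 10 arrays, gave -0.45 and -0.41 for the stage and -0.23 and -0.19 for the tissue, none of them called.

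**Figure D4:**
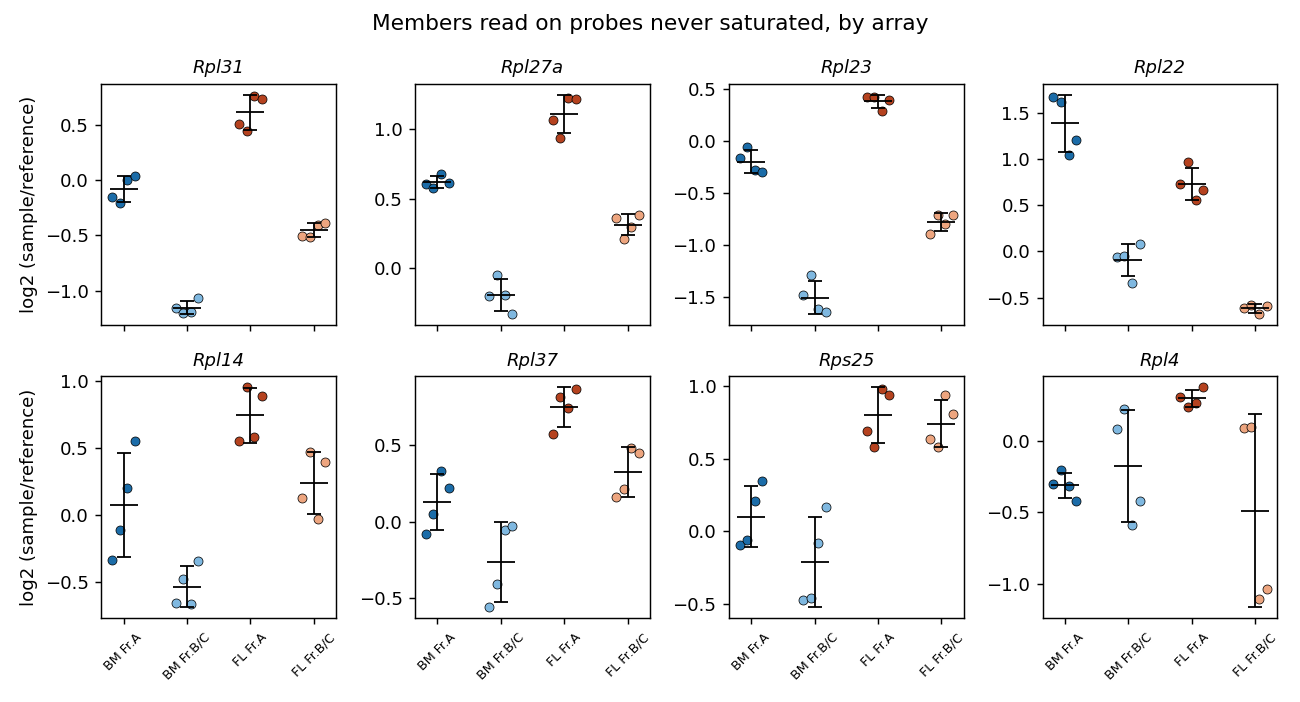
Log2 ratio of sample over reference on each array (points, arrays 1 to 4 from left to right) for 8 members on never-saturated probes, by group; horizontal marks are means and bars are SD, n = 4, and each panel has its own vertical scale. Rpl31, Rpl27a, Rpl23 and Rpl22 show 4 separate groups, while Rpl4 in FL Fr.B/C splits into arrays 1 and 2 near 0.1 and arrays 3 and 4 near -1.1.

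Rpl14, a large-subunit protein, varied more between arrays of a group. BM Fr.A read -0.34, -0.12, 0.20 and 0.56 and BM Fr.B/C -0.66, -0.48, -0.66 and -0.35, while FL Fr.A read 0.55, 0.95, 0.58 and 0.89 and FL Fr.B/C 0.13, 0.47, -0.03 and 0.40. The tissue groups overlapped by 1 array in Fr.A and were separate otherwise. Rpl14 fell to Fr.B/C by -0.61 ± 0.13 in bone marrow and -0.50 ± 0.13 in fetal liver (limma adjusted p = 0.00169 and 0.00990), and was higher in fetal liver by 0.67 ± 0.13 and 0.78 ± 0.13 (0.00106 and 3.39e-04). Under median centring the stage falls of Rpl14 missed the threshold.

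Rpl21, also of the large subunit, had its larger stage step in fetal liver. It read 0.12, 0.12, -0.13 and -0.09 in BM Fr.A, -0.60, -0.49, -0.42 and -0.54 in BM Fr.B/C, 0.62, 0.34, 0.56 and 0.32 in FL Fr.A, and -0.36, -0.72, -0.03 and -0.28 in FL Fr.B/C. The falls were -0.52 ± 0.12 and -0.81 ± 0.12 (limma adjusted p = 0.00255 and 8.37e-05), with no overlap of groups. In Fr.A it was higher in fetal liver by 0.46 ± 0.12 (0.00708), and this call was lost under median centring.

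Rpl37 and Rps25 were higher in fetal liver on dim second probes, whose mean log2 brightness was 7.16 and 8.77. Rpl37, of the large subunit, was higher by 0.62 ± 0.13 for Fr.A and 0.59 ± 0.13 for Fr.B/C (limma adjusted p = 0.00196 and 0.00327). Its falls to Fr.B/C, -0.39 ± 0.13 and -0.43 ± 0.13 (0.0308 and 0.0271), missed the threshold when single arrays were left out (BM Fr.A 3 or 4 or BM Fr.B/C 1 or 2 in bone marrow; FL Fr.A 2, 3 or 4 or FL Fr.B/C 1 or 2 in fetal liver). Rps25, of the small subunit, was higher in fetal liver by 0.69 ± 0.15 and 0.95 ± 0.15 (0.00283 and 2.62e-04), with stage differences of -0.31 and -0.06 that did not pass; with the sort as a block the first did (adjusted p = 0.00375). Its values in Fr.B/C ran from -0.47 to 0.17 in bone marrow and from 0.58 to 0.94 in fetal liver, without overlap.

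The calls on 4 other members between tissues were lost when single arrays were left out. In Fr.A, Rpl29 and Rpl34 were higher in fetal liver by 0.46 ± 0.16 and 0.38 ± 0.12 (limma adjusted p = 0.0391 and 0.0270); the 4 probes of Rpl29, none saturated, gave 0.31 to 0.54. Leaving out BM Fr.A 1, BM Fr.A 2, FL Fr.A 3 or FL Fr.A 4 lost the call on Rpl29, and leaving out BM Fr.A 2, FL Fr.A 3 or FL Fr.A 4 lost that on Rpl34. In Fr.B/C, Rps19, the gene most often mutated in Diamond-Blackfan anaemia, was higher by 0.48 ± 0.14 (0.0197), and Rps15a by 0.56 ± 0.20 (0.0457). The call on Rps19 was lost without BM Fr.B/C 1 or 2 or FL Fr.B/C 3 or 4. That on Rps15a was lost under 19 of 32 alternatives, among them leaving out any BM Fr.A array or array 1, 3 or 4 of BM Fr.B/C or of FL Fr.B/C.

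Rpl4, of the large subunit, was called lower in FL Fr.B/C than in FL Fr.A, by -0.78 ± 0.25 (limma adjusted p = 0.0355). Its values were 0.30, 0.24, 0.27 and 0.37 in FL Fr.A against 0.09, 0.10, -1.11 and -1.04 in FL Fr.B/C. Arrays 1 and 2 were scanned in one session and arrays 3 and 4 in another, and the difference was -0.18 within the first and -1.39 within the second. Leaving out any 1 of the 4 FL Fr.A arrays or FL Fr.B/C 3 or 4 lost the call. In bone marrow Rpl4 differed by 0.14 ± 0.25.

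Within scan sessions the leading stage differences kept their size. In the 2 fetal liver sessions, with 2 arrays of each stage, Rpl31 differed by -0.99 and -1.15, Rpl23 by -1.22 and -1.10, Rpl22 by -1.45 and -1.25, and Rpl27a by -0.72 and -0.88. In the 3 bone marrow sessions that held both stages, with 1 or 2 arrays of Fr.A and 1 of Fr.B/C, Rpl31 differed by -1.02 to -1.19, Rpl23 by -1.17 to -1.33, Rpl22 by -1.13 to -1.70 and Rpl27a by -0.64 to -0.94. In the fetal liver sessions Rpl14 differed by -0.46 and -0.55, Rpl21 by -1.02 and -0.60, and Rpl37 by -0.51 and -0.34. In the bone marrow sessions Rpl14 differed by -0.25 to -0.90, Rpl21 by -0.29 to -0.61 and Rpl37 by -0.25 to -0.39. Bone marrow and fetal liver arrays were never scanned in the same session (6 sessions, 0 with both tissues). For every difference between tissues above, tissue and session cannot be told apart.

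The step from Fr.A to Fr.B/C was then compared between tissues. The interaction, the step in fetal liver minus that in bone marrow, was called for 0 of the 76 members and 0 of the 26 never-saturated ones by limma, where 4.54% of all genes were higher and 2.98% lower (4.59% and 3% in the fit on never-saturated probes). At an unadjusted p under 0.05, 0 members were higher and 1 lower in each set. The largest interaction was that of Rpl4, -0.92 ± 0.36 (adjusted p = 0.148). With the sort as a block Rpl4 (-0.92, adjusted p = 0.0474) and the partly saturated Rps21 (0.72, adjusted p = 0.0117) passed. Members with a like step in both tissues, such as Rpl31, Rpl27a and Rpl23, had interactions that did not pass the test, which does not show that their steps were equal.

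The members named most often for other reasons gave little. Rplp0, the base of the stalk that recruits elongation factors, was saturated in the sample on 15 arrays, and its differences lay from -0.25 to -0.21. Rplp1 was partly saturated, and Rps4x, Rps14, Rpl11 and Rpl38 were saturated in the sample on all 16 arrays, so no direction is given for them. Rplp2, another stalk protein, was saturated in the same way on its brightest probe; its never-saturated probe had group means of -0.08, -0.04, -0.04 and 0.17 in the order BM Fr.A, BM Fr.B/C, FL Fr.A and FL Fr.B/C, and passed no test. Rpl5, whose free protein with Rpl11 inhibits MDM2, gave -0.25 to -0.23. Its spot was saturated on all 16 arrays, so no direction is read from these values. Rps6, the substrate of S6 kinase, was saturated on 1 array only and differed by -0.23 ± 0.14 in bone marrow and -0.49 ± 0.14 in fetal liver (limma adjusted p = 0.227 and 0.0150). Rpsa, also known as the laminin receptor, was never saturated on its brightest probe, with group means of 0.27, 0.10, 0.21 and -0.23 in the same order, and passed no test in the fit without the block. With the sort as a block it was lower in FL Fr.B/C than in FL Fr.A, by -0.44 (limma adjusted p = 0.0490). With the mean of its probes it was higher in fetal liver Fr.B/C than in bone marrow, by 0.52 (adjusted p = 0.0261), against -0.32 on the brightest probe. Rpl18, never saturated, had the narrowest span of group means on brightest probes, 0.04. Of 19 members mutated in Diamond-Blackfan anaemia, 15 were saturated on some array. In fetal liver, 1 was higher and 1 lower in Fr.A (12.1% and 17.3% of all genes) and 3 higher and 0 lower in Fr.B/C (13.8% and 14.6%). From Fr.A to Fr.B/C, 0 rose and 2 fell in bone marrow (13.4% and 18.8%) and 0 rose and 1 fell in fetal liver (10.1% and 12.7%). The calls on Rpl31, Rps15a and Rps19 were on unsaturated spots, while Rps24, lower in fetal liver Fr.A, and Rps29, lower in bone marrow Fr.B/C, were saturated on all 16 arrays and give no direction.

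Related gene groups were set beside the members. Of 74 genes of the mitochondrial ribosome, which translates the proteins of the mitochondrial genome and of which 0 were ever saturated, 40 were higher and 0 lower in fetal liver in Fr.A (median 0.41; 12.1% and 17.3% of all genes), and 30 higher and 0 lower in Fr.B/C (median 0.32; 13.8% and 14.6%). Mrpl11 was higher by 0.86 ± 0.09 and 0.94 ± 0.09 (limma adjusted p = 4.21e-06 and 1.84e-06). From Fr.A to Fr.B/C, 19 rose and 6 fell in bone marrow (median 0.22; 13.4% and 18.8% of all genes) and 13 rose and 2 fell in fetal liver (median 0.12; 10.1% and 12.7%). The never-saturated cytosolic members had medians of -0.26 and -0.27, or -0.10 and -0.11 under median centring, a setting not run for the mitochondrial list. The difference between these lists was not tested.

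**Figure D5:**
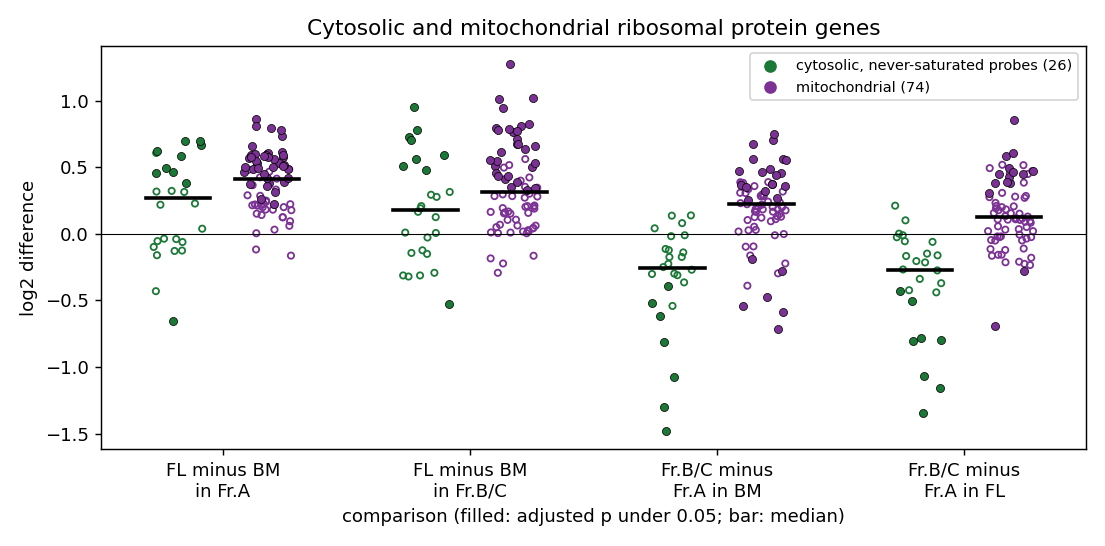
Log2 difference of the 26 cytosolic members on never-saturated probes (green) and of 74 mitochondrial ribosomal protein genes (purple) in 4 comparisons; filled points passed the test and black bars are medians. Both lists have medians above 0 for fetal liver minus bone marrow, and for Fr.B/C minus Fr.A the cytosolic medians lie below 0 (-0.26 and -0.27) and the mitochondrial ones above (0.22 and 0.12).

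Among 36 genes of ribosome biogenesis, the factors that make rRNA and assemble subunits, 11 were higher and 1 lower in fetal liver Fr.A, and 10 higher and 0 lower in fetal liver Fr.B/C, where 12.1% and 17.3% of all genes were higher and lower in Fr.A and 13.8% and 14.6% in Fr.B/C. From Fr.A to Fr.B/C, 1 rose and 8 fell in bone marrow (13.4% and 18.8% of all genes), and 0 rose and 4 fell in fetal liver (10.1% and 12.7%), so the shares that fell were close to those of all genes. Ncl, which encodes nucleolin, fell by 0.67 ± 0.14 in bone marrow and by 1.15 ± 0.14 in fetal liver (limma adjusted p = 0.00211 and 2.46e-05). Nop58, a core protein of box C/D snoRNPs, fell by 0.95 ± 0.26 and by 0.86 ± 0.26 (0.0113 and 0.0270).

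Of 21 other genes with TOP mRNAs, 7 were saturated on some array. From Fr.A to Fr.B/C, 3 rose and 4 fell in bone marrow (13.4% and 18.8% of all genes) and 1 rose and 3 fell in fetal liver (10.1% and 12.7%), shares close to the background. The falls included Npm1, which encodes nucleophosmin, in both tissues and the elongation factor gene Eef1b2 in bone marrow, saturated on 16 and 13 arrays, from which no direction is read. Between tissues 4 were higher and 2 lower in fetal liver Fr.A (12.1% and 17.3%) and 2 higher and 5 lower in fetal liver Fr.B/C (13.8% and 14.6%). The saturated Npm1 was counted among the higher in each, and no direction is read from it there either. Nap1l1, a histone chaperone, fell by 0.80 ± 0.14 and by 1.02 ± 0.14 with the stage (limma adjusted p = 3.24e-04 and 4.98e-05). Of ribosomal proteins with other names, Fau and Rack1 were saturated on all 16 arrays and passed no test within a tissue or a stage. Rps3a1, saturated on 9 arrays, differed by -0.43 ± 0.13 from Fr.A to Fr.B/C in fetal liver (limma adjusted p = 0.0234). It passed no other test within a tissue or a stage, and as for Eef1b2 no direction is read from it.

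Paralogues of members, never part of the list above, moved in both directions. Of 6 measured, 2 were higher and 1 lower in fetal liver Fr.A (12.1% and 17.3% of all genes), and 3 higher and 1 lower in fetal liver Fr.B/C (13.8% and 14.6%). Rpl22l1, which can replace Rpl22 in the ribosome, fell to Fr.B/C by 1.01 ± 0.12 in bone marrow and by 0.64 ± 0.12 in fetal liver (limma adjusted p = 1.46e-05 and 0.00132), and in Fr.B/C it was higher in fetal liver by 0.66 ± 0.12 (0.00102), where Rpl22 was lower. Rps27l, a p53 target, was higher in fetal liver by 0.67 ± 0.16 and 0.66 ± 0.16 (0.00502 and 0.00599). Rpl39l, the paralogue of Rpl39 known from testis, was higher in fetal liver by 2.04 ± 0.10 for Fr.A and 3.87 ± 0.10 for Fr.B/C (1.33e-09 and 2.44e-12). Rpl3l, the paralogue of Rpl3 known from muscle, was lower in fetal liver at both stages (2.28e-05 for Fr.A and 1.11e-08 for Fr.B/C), by -2.01 ± 0.13 in Fr.B/C. It rose to Fr.B/C by 1.03 ± 0.13 in bone marrow (1.25e-05) and differed by 0.02 in fetal liver, with an interaction of -1.01 ± 0.18 (limma adjusted p = 0.00248).

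Mycn, Mycl and Myc, of the MYC family of transcription factors, fell with the stage. Their part in the differences between members was not tested. Of 16 growth regulators measured, 3 rose and 5 fell in bone marrow (13.4% and 18.8% of all genes) and 2 rose and 5 fell in fetal liver (10.1% and 12.7%). The stage difference of Mycn was -2.22 ± 0.20 in bone marrow and -1.89 ± 0.20 in fetal liver (limma adjusted p = 4.95e-07 and 3.93e-06), that of Mycl -1.54 ± 0.20 and -1.87 ± 0.20 (2.69e-05 and 5.16e-06), and that of Myc -0.96 ± 0.21 and -0.67 ± 0.21 (0.00231 and 0.0309). Between tissues Mycn was higher in fetal liver by 0.65 ± 0.20 for Fr.A and 0.98 ± 0.20 for Fr.B/C (0.0238 and 0.00186), while Myc was lower in Fr.A by -0.85 ± 0.21 (0.00643).

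Most B-lineage markers rose from Fr.A to Fr.B/C, and the groups also differed in other cell markers. Of 12 B-lineage genes, 8 rose and 1 (Rag1) fell to Fr.B/C in bone marrow, against 13.4% and 18.8% of all genes. In fetal liver 8 rose and 3 (Rag1, Rag2 and Ptprc) fell, against 10.1% and 12.7%. Between tissues, 0 of the 12 B-lineage genes were higher and 2 lower in fetal liver Fr.A. In fetal liver Fr.B/C 0 were higher and 6 lower (Blnk, Ebf1, Ptprc, Rag1, Rag2 and Vpreb2). Their interaction was higher for 0 and lower for 2 (Ptprc and Vpreb2). Of all genes, 12.1% were higher and 17.3% lower in fetal liver Fr.A, and 13.8% and 14.6% in fetal liver Fr.B/C. The interaction was higher for 4.54% of all genes and lower for 2.98%. Fetal liver had 9 of 11 erythroid genes higher in Fr.A and 8 higher in Fr.B/C, with 0 lower; their mean log2 ratio per array ran from 0.48 to 0.58 in BM Fr.A, 0.19 to 0.41 in BM Fr.B/C, 1.51 to 2.90 in FL Fr.A and 1.66 to 2.60 in FL Fr.B/C. Of 14 mitosis genes, 13 were higher in fetal liver Fr.A, 8 in fetal liver Fr.B/C, and 12 in bone marrow Fr.B/C than in BM Fr.A; in fetal liver 6 rose and 1 (Cenpe) fell to Fr.B/C, and 5 of the 14 had a called interaction, all lower. Their mean ran from -0.97 to -0.72, -0.14 to -0.06, -0.06 to 0.12 and 0.20 to 0.41 in the same order of groups. Fetal liver had 5 of 8 myeloid genes lower in Fr.A and 4 lower in Fr.B/C, with 0 higher, and their mean ran from 4.94 to 5.996, 4.25 to 4.93, 3.03 to 4.44 and 2.41 to 3.56. Of the markers listed, 12 of 14 B-lineage, 11 of 12 erythroid, 14 of 16 mitosis and 8 of 9 myeloid genes were measured and passed the filter. Their part in the differences between members was not tested.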

How the data were processed

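The authors deposited scanner output of 16 two-colour arrays, which holds the intensity of each spot in both dyes and saturation flags (made with version 8.5.1.1 of Agilent's Feature Extraction, per the file headers), and a table of log2 ratios by probe. The submitters' processing notes name limma without a version; the making of the deposited log2 ratios is otherwise not described, and they served as an alternative. Per the file headers, the scanner software also made a log10 ratio of its processed signals, which served as another alternative. Intensity values were background-corrected with normexp (offset 50) and normalized by loess within arrays in limma 3.58.1 (R 4.3.3); control spots had weight 0, outlier spots were dropped and saturated spots kept. The sample was in Cy5 on arrays 1 and 3 of a group and in Cy3 on 2 and 4, and all ratios were turned to sample over reference. Probes well above background on at least 3 of 4 arrays of a group and usable on at least 12 arrays were kept, with the brightest probe per gene. Between 52.9% and 68.3% of probes were well above background per array, and the number of arrays limits the precision. One model with 4 group means and a dye term (11 residual degrees of freedom) gave 5 comparisons, those within a tissue, within a stage and the interaction; comparisons that share a group are not independent. The model was tested on simulated data with independent arrays, which does not cover the correlation between arrays of a group given below. Within a group, each sample came from a separate sort, per the labels' protocols, and the fit treats the 4 arrays as independent. Deviations from the group means, with the dye term removed, nevertheless went together in arrays 1 and 2 (correlation -0.048 in FL Fr.A, 0.452 to 0.77 in the other groups). They also did in arrays 3 and 4 (0.58 to 0.667). Between array 1 and arrays 3 and 4 they were opposed (-0.847 to -0.531). Such deviations cancel over the 4 arrays of a group, so the opposition is partly built in and is not a separate result. Averaging these sets was an alternative.

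Fr.A and Fr.B/C samples of one number were taken to come from one sort, a match inferred from the numbers. Their deviations from the group means, with the dye term removed, correlated at 0.422 to 0.518 in bone marrow and 0.249 to 0.379 in fetal liver. Differently numbered samples of the same set correlated at 0.218 to 0.33 and 0.213 to 0.424, so in fetal liver the correlation was not particular to the shared number. The labels' protocols give 1 sample of each fraction per sort. The sort, as inferred from the number, was therefore also fitted as a block for the stage comparisons and the interaction. In the comparisons between tissues, which share no sort, the block was the array number. Alternatives changed the background, normalization, filter, probe choice, dye, session and single arrays. Named genes were up to 6 highest and 6 lowest calls per comparison, the widest and narrowest spans, 12 fixed members and up to 4 genes per companion list. A few genes that the rule would name are not reported here. Members and lists were chosen with earlier results of these data known. Marker lists for NK cells, T cells, plasmacytoid dendritic cells and hepatocytes were also measured. Gene symbols, positions and promoters are from RefSeq (GRCm38.p6); probe positions were not used here, so processed pseudogenes and transcript variants that a probe may also detect were not separated.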

Additional observations from a re-analysis of the deposited data

Results flagged for a closer look

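Over the called members on never-saturated probes, Rpsa, Rplp2 and the array medians, 0 of 68 groups of 4 arrays had a single array apart from the rest by Dixon's test. Rpl29 in FL Fr.B/C, with no value on array 3, is counted in the 68 but was not tested. The paralogue Rpl39l had a step from Fr.A to Fr.B/C that differed between tissues by the interaction, 1.83 on the log2 scale: 1.85 in fetal liver and 0.02 in bone marrow. The interaction of the paralogue Rpl3l was -1.01, with steps of 0.02 in fetal liver and 1.03 in bone marrow.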

How the results depend on the processing

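Counts below are of the 76 members unless never-saturated probes are named, and the cause of each shift was not tested. The stage falls of Rpl22, Rpl23, Rpl27a and Rpl31 on never-saturated probes kept their direction and call in both tissues under all 32 alternatives to each, as did the Rpl31 rises in fetal liver. In Fr.A, the count lower in fetal liver (5) was 3 with no background subtraction, with the authors' deposited ratios, with loess fitted without members and with no filter, 2 with the scanner's processed signals, with scaling between arrays and with loess fitted without saturated spots, 1 with session as a random block and with the sample channel alone, and 0 with saturated spots left out (median 0.317). Never-saturated probes gave 9 higher and 1 lower there, with medians of 0.271 for Fr.A and 0.178 for Fr.B/C, against -0.189 and -0.142 over the 76. In Fr.B/C, the count lower (1) was 0 with loess fitted without members or without saturated spots, session, the sample channel alone, and saturated spots left out (median 0.125), and 2 with the mean of all probes. The count lower in bone marrow Fr.B/C (10) was 6 with processed signals or deposited ratios and 4 with saturated spots left out, and that in fetal liver Fr.B/C (6) was 11 with the mean of all probes. On never-saturated probes the bone marrow count (7) was 11 with session or loess without saturated spots, and the sample channel alone gave 2 lower in fetal liver Fr.A and 1 interaction higher over the 76.

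Centring each array on its median instead of loess gave 3 higher and 0 lower in Fr.A, 0 lower in Fr.B/C with a median of 0.138, and 4 and 3 lower for the stage in bone marrow and fetal liver; on never-saturated probes it gave 4 higher and 0 lower in Fr.A, 0 lower in Fr.B/C, and stage medians of -0.102 and -0.112. Averaging neighbouring arrays into sets gave 3 higher and 1 lower in Fr.A, 0 lower in Fr.B/C, and 3 lower for the fetal liver stage (5 on never-saturated probes). With Cy5 arrays alone there were 3 higher and 0 lower in Fr.A, 2 higher and 0 lower in Fr.B/C, and 2 lower in bone marrow; never-saturated probes gave 3 and 0, 4 and 0, and 4 and 5 lower for the stages. With Cy3 arrays alone there were 1 higher and 0 lower in each tissue comparison (Fr.A median -0.512), and 2 and 3 lower for the stages; never-saturated probes gave 2 and 0 in each, and 4 and 5 lower.

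With the sort as a replicate block, the count lower in bone marrow was 27 (12 on never-saturated probes), and the interaction had 1 higher and 1 lower (1 lower on never-saturated probes). For the tissue comparisons the block was the array number and not the sort. No other count moved by over 1.5 times under these blocks. Rpl19 turned to 0.227 (limma adjusted p = 0.356) on its never-saturated probe in Fr.A, and Rpsa to 0.516 (limma adjusted p = 0.0261) in Fr.B/C with the mean of all probes. Leaving out 1 array at a time gave 4 to 5 higher and 1 to 5 lower in Fr.A (median -0.261 to -0.052), 3 to 6 higher and 0 to 3 lower in Fr.B/C (-0.206 to -0.037), 5 to 13 lower in bone marrow (-0.389 to -0.153), 4 to 14 lower in fetal liver (-0.353 to -0.133) and 0 interactions. On never-saturated probes it gave 7 to 9 higher in Fr.A (median 0.099 to 0.373), 6 to 9 higher in Fr.B/C (0.117 to 0.194), 6 to 10 lower in bone marrow (-0.381 to -0.160) and 6 to 9 lower in fetal liver (-0.365 to -0.197). The loess without saturated spots and the sample channel alone were chosen after seeing the data. Saturation, not dim signal, limits what can be read for 50 of the 76 members.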

Other observations

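Other cell markers measured beside the members also differed between groups. Over all genes, 12.1% were higher and 17.3% lower in fetal liver Fr.A, and 13.8% and 14.6% in fetal liver Fr.B/C. From Fr.A to Fr.B/C, 13.4% rose and 18.8% fell in bone marrow, and 10.1% rose and 12.7% fell in fetal liver. Of 6 NK cell genes, fetal liver Fr.A had 4 lower than BM Fr.A, and 5 fell to Fr.B/C in bone marrow, with 0 higher. Of 4 hepatocyte genes measured, fetal liver had 0 higher and 2 lower in Fr.A, with 2 higher and 1 lower in Fr.B/C; 3 fell to Fr.B/C in bone marrow and 2 in fetal liver. Of 7 T cell genes, fetal liver had 0 higher and 3 lower in Fr.A and 1 higher and 3 lower in Fr.B/C. From Fr.A to Fr.B/C, 0 rose and 3 fell in bone marrow and 1 rose and 3 fell in fetal liver. Of 5 plasmacytoid dendritic cell genes, 4 fell to Fr.B/C in each tissue with 0 rising. Fetal liver had 2 of them higher and 2 lower in Fr.A, and 0 higher and 2 lower in Fr.B/C.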
